A study of Mus musculus with 6 samples.

Results

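The genes examined here were 10 genes of epidermal barrier lipid synthesis and transport, *Abca12*, *Alox12b*, *Aloxe3*, *Cers3*, *Elovl1*, *Elovl4*, *Cyp4f39*, *Pnpla1*, *Ugcg* and *Abhd5*. They were chosen by name, and their rows were found among the 55536 genes of the count table by matching Ensembl identifiers to gene symbols. The table held bulk RNA-seq of basal epidermal cells sorted as Epcam+ and α6+ from dorsal skin of mouse embryos at E16.5, with 3 control (Ctrl) and 3 triple knockout (TKO) libraries. Both groups carried floxed *Suv39h1* and floxed *Setdb1* alleles and lacked *Suv39h2* (Suv39h1 f/f, Suv39h2-/-, Setdb1 f/f), and both had received tamoxifen. They differed in the K14CreERT2 transgene, absent from Ctrl and present in TKO, in which the keratin 14 promoter places the tamoxifen-activated recombinase in basal keratinocytes. The 3 genes encode methyltransferases that set the repressive chromatin mark H3K9me3, so the controls were not wild type: they too were without *Suv39h2*. Tamoxifen was given as 3 daily doses from embryonic day 9.5 to 11.5, and the study's records list 3 litters with recombination described as mosaic, so that some sorted TKO cells may have kept intact alleles.

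Between basal cells and the skin surface, keratinocytes build a lipid that waterproofs the body. Fatty acids are lengthened to ultra-long chains, hydroxylated at the far end, joined to a sphingoid base as ceramide and capped with linoleate to give acylceramide. Acylceramide is then glucosylated, loaded into lamellar granules, released between the uppermost cells and oxidized, after which it is joined to the proteins of the cornified envelope. Inherited loss of function of most of these enzymes and of the transporter *ABCA12* is a known cause of ichthyosis, and mice that lack several of them die after birth from water loss. These steps take place mainly in suprabasal cells, in particular the granular layer, whereas the cells profiled here were sorted for basal surface proteins. The comparison asked how the RNA of this pathway in the sorted fraction differed between TKO and Ctrl.

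RNA of all 10 genes was detected in every library, with 462 to 20343 counts per gene and library, and all 10 passed the low-count filter. None was called changed, a call being an adjusted p under 0.05 with an absolute log2 fold change above 1 in edgeR's quasi-likelihood test across 20622 genes. Of all tested genes, 27 (0.131%) were called higher and 0 (0%) lower in TKO by the same rule, and DESeq2 on the same genes called 193 higher and 21 lower, with 0 members among them. Of all tested genes 416 (2.02%) had an unadjusted p under 0.05 in the lower direction in edgeR. No member had an unadjusted p under 0.05 in this fit, which 6.08% of all tested genes did. The 10 log2 fold changes of TKO over Ctrl ran from -0.22 to 0.47, 6 of them positive and 4 negative, with a median of 0.04 beside 0.01 for all tested genes. In no gene did the 3 TKO libraries all lie above or all below the 3 Ctrl libraries, arrangements that 6.35% and 5.11% of tested genes showed. For 10 of 10 members, and for 53.2% of tested genes, the 95% interval of the log2 fold change stayed within -1 and 1, which bounds each difference below 2-fold at this confidence, taken one gene at a time.

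The libraries held from 102159175 counts (Ctrl replicate 1) to 136515436 counts (Ctrl replicate 2), and the other totals were 104422632 for Ctrl replicate 3, 116308383 for TKO replicate 1, 108957256 for TKO replicate 2 and 118413082 for TKO replicate 3. The 3 most abundant identifiers took 5.65% of the counts in TKO replicate 3 and 8.86% to 13.2% in the other libraries. Levels are given below as CPM, the counts scaled to a common library size, and comparisons between genes as CPM per kb of exon. Exon length was the union over all annotated transcripts of a gene, so the order of genes per kb depends on the annotation. In these libraries 3 counts corresponded to 0.0232 to 0.0303 CPM. Each group held both sexes, Ctrl replicate 1 and TKO replicate 2 being female. The sources used here do not say whether a library came from a single embryo, so the p-values measure the spread between these libraries.

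The targeted genes were read first as a check of the labels. *Setdb1* stood at 125.5, 117.9 and 121.1 CPM in Ctrl and at 95.3, 62.3 and 74.9 CPM in TKO. Every TKO library was below every Ctrl library, in the direction of the label, and its log2 fold change was -0.65 ± 0.161 (SE; adjusted p 0.286 in edgeR and 0.0449 in DESeq2). Counts over whole genes mix deleted and retained exons, and *Suv39h1* (log2 fold change -0.10) and *Suv39h2* (0.11, deleted in both groups) showed overlapping groups.

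The sorted fraction was checked against cell type markers. The basal keratins were high in all libraries, *Krt5* at a mean of 4268 and *Krt14* at 2780 CPM per kb. The spinous keratin *Krt10*, a marker of cells that have left the basal layer, was also abundant, at 3484 CPM per kb. Whether this RNA came from suprabasal cells or from basal cells that had begun to express it was not tested. The granular and cornified markers spanned a wide range. *Asprv1*, a protease gene of the granular layer, averaged 72.1 CPM per kb and *Casp14* 33.8, whereas *Loricrin* averaged 3.17, *Flg* and *Flg2* 0.0092 and 0.010, and *Lce1c* was at 0 in all 6 libraries. In bulk RNA, fewer cells of a type and less RNA per cell cannot be told apart. Fibroblast RNA was present too, the 6 markers summing to 1203.0, 3357.6 and 3008.7 CPM in Ctrl and to 2162.2, 2564.3 and 2807.2 CPM in TKO, led by *Col1a1*.

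Compared per kb of exon in Ctrl, the 10 genes spanned more than an order of magnitude. *Elovl4*, the elongase that makes the ultra-long acyl chains, was the highest at 48.9 CPM per kb and stood apart from the next gene. The ceramide synthase *Cers3* (18.9) and the ω-hydroxylase *Cyp4f39* (18.0) followed, their library ranges overlapping. *Elovl1* (11.8) and *Abhd5* (8.06) came next, each with a range separate from its neighbours. *Ugcg* (5.99) and *Abca12* (5.42) overlapped, as did *Pnpla1* (3.16) and *Alox12b* (2.84). *Aloxe3*, the second lipoxygenase of the pathway, was the lowest at 1.12 CPM per kb. Its exon union was 6397 bases and that of *Alox12b* 3391, and their Ctrl means before division by length were 7.16 and 9.63 CPM. The ranges between libraries do not include error in these lengths. In TKO the means were 50.4 for *Elovl4*, 16.3 for *Cers3*, 17.9 for *Cyp4f39* and 0.964 for *Aloxe3*. The same 3 pairs overlapped, and *Abca12* (7.48) stood above *Ugcg* (6.93) and overlapped *Abhd5* (8.51) as well, while all other neighbours stayed apart.

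**Figure D1:**
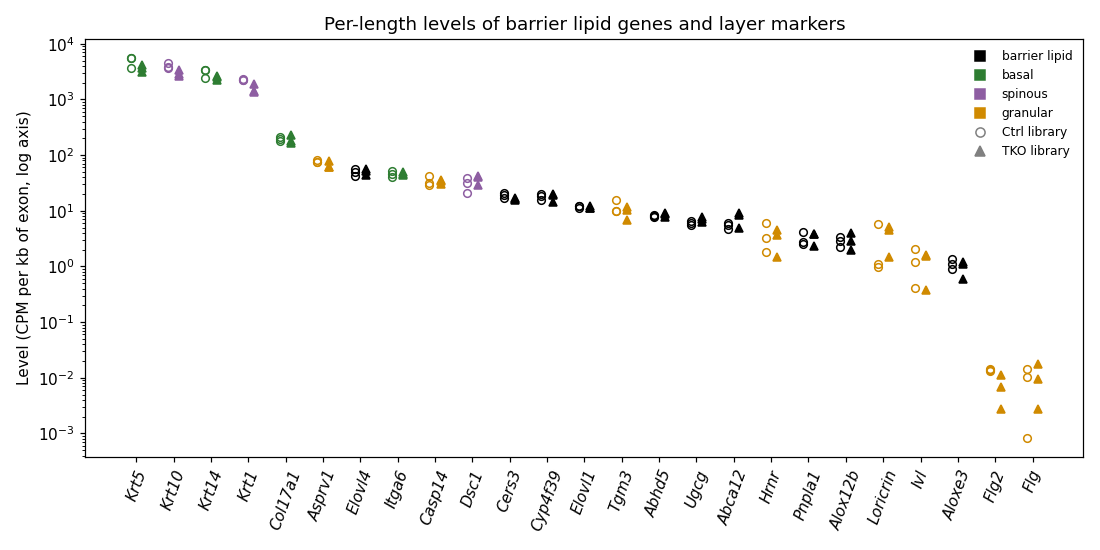
Level per kb of exon in each library (CPM per kb, log axis) of the barrier lipid genes (black) and of basal (green), spinous (purple) and granular (orange) markers, with open circles for Ctrl and triangles for TKO libraries. Among the barrier lipid genes *Elovl4* lay highest at a Ctrl mean of 48.9 and *Aloxe3* lowest at 1.12, all of them below *Krt5*, *Krt10*, *Krt14* and *Krt1* and above *Flg* and *Flg2*.

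Promoter sequences of 9 of the 10 genes were matched by symbol in RefSeq (build GRCm38.p6), as 10 windows since *Elovl1* has 2 listed starts. The 250 bases before the start are printed for 4 genes, 5′ to 3′ on the gene's strand, with each CG dinucleotide in capitals. *Elovl4* and *Abhd5* are shown as genes of higher or steadier level, and *Abca12* and *Alox12b* as 2 of the genes whose level differed most between libraries. The windows are chr9:83806306-83806555 on the minus strand for *Elovl4*, chr9:122351366-122351615 on the plus strand for *Abhd5*, chr1:71414911-71415160 on the minus strand for *Abca12* and chr11:69156822-69157071 on the plus strand for *Alox12b*.
Elovl4: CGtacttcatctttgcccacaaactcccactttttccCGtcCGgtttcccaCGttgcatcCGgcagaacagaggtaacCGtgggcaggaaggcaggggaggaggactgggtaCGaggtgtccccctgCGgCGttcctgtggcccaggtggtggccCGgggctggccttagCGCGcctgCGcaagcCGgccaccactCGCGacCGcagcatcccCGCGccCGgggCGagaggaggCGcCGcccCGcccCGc
Abhd5: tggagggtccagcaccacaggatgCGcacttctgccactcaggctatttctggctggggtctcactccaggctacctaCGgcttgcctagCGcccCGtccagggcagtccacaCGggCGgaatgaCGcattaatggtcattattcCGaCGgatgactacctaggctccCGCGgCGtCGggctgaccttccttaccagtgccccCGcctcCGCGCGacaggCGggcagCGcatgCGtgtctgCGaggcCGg
Abca12: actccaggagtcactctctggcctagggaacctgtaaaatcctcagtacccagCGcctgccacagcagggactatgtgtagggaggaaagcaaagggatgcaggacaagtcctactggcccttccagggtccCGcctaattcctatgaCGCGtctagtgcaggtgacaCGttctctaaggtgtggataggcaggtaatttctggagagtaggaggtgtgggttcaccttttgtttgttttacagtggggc
Alox12b: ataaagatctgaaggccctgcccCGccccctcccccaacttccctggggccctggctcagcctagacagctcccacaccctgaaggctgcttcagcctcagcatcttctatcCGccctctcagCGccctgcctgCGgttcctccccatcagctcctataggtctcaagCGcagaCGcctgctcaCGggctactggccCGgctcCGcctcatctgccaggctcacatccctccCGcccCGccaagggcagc

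The *Elovl4* and *Abhd5* windows held 25 and 22 CG dinucleotides with a GC content of 69.6% and 64.8%. The *Abca12* window held 5 at 53.2% GC and that of *Alox12b* 11 at 66%, beside a median of 6 and 52.4% over all 32851 promoter windows of this length. *Ugcg* had the most CG dinucleotides of the members (43), and *Pnpla1* (5), *Cers3* (6) and the second *Elovl1* start (5) were at or below the median of all promoters. The letters GGGCGG, searched on both strands, occurred in 6 of 10 member windows (*Ugcg*, both starts of *Elovl1*, *Elovl4*, *Abhd5* and *Alox12b*) and in 32.7% of all promoters. The letters TATAAA were in 0 of the 10 windows and in 12.4% of all promoters. TGANTCA was likewise in 0 windows, against 6.75% of all promoters, and CACGTG in 0, against 6.02%. AACCNGTT was in 0 windows and 1.79% of all promoters, and 2 copies of AGGTCA in the same direction with 1 base between them were in 0 windows and 0.0335% of all promoters. These are matches of letters in a fixed window and not binding sites.

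The elongases open the pathway. *Elovl4* (ENSMUSG00000032262, chr9:83778692-83806305) stood at 129.6, 153.4 and 175.5 CPM in Ctrl and 172.9, 162.2 and 137.5 CPM in TKO. The groups covered nearly the same range, the means being 152.8 ± 23.0 and 157.5 ± 18.2 CPM (SD, n = 3 each) and the log2 fold change 0.04 ± 0.153 (SE, 95% interval -0.30 to 0.38). *Elovl1* (ENSMUSG00000006390, chr4:118426874-118432953), which lengthens saturated acyl chains upstream of *Elovl4*, varied least between libraries of the 10 genes. Its levels were 60.4, 65.4 and 67.1 CPM in Ctrl and 61.7, 65.2 and 61.4 CPM in TKO. The highest library was 1.11 times the lowest, and the log2 fold change was -0.04 with an interval of -0.30 to 0.23. *Elovl1* overlaps *Cdc20* on the other strand, and 6 further members (*Abca12*, *Alox12b*, *Elovl4*, *Cyp4f39*, *Pnpla1* and *Abhd5*) also overlap an annotated gene on the other strand. Whether the counting used strand is not given in the sources used here, so reads of such partners may be among their counts.

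*Cyp4f39* (ENSMUSG00000061126, chr17:32452697-32493320) encodes the cytochrome P450 that hydroxylates the end of the ultra-long fatty acid, the position at which the linoleate is later attached. It read 55.3, 45.8 and 58.8 CPM in Ctrl and 59.0, 56.8 and 42.9 CPM in TKO, so that both groups held a low and a pair of higher libraries. The means of 53.3 ± 6.71 and 52.9 ± 8.74 CPM gave a log2 fold change of -0.01 (95% interval -0.38 to 0.36).

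*Cers3* (ENSMUSG00000030510, chr7:66733118-66823692) encodes the ceramide synthase that joins ultra-long acyl chains to the sphingoid base. Its levels were 54.3, 66.8 and 63.8 CPM in Ctrl and 51.8, 52.7 and 54.9 CPM in TKO. TKO replicate 3 alone lay above the lowest Ctrl library, by a margin smaller than the spread within either group. Ctrl averaged 61.6 ± 6.53 CPM and TKO 53.1 ± 1.61 CPM, with a log2 fold change of -0.21 ± 0.131 (SE), an interval of -0.51 to 0.08, an unadjusted p of 0.136 and an adjusted p of 0.9998 in edgeR.

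Capping with linoleate is the work of *Pnpla1*, an acyltransferase, with *Abhd5* as its lipid droplet partner. *Pnpla1* (ENSMUSG00000043286, chr17:28858286-28890308) stood at 12.5, 13.5 and 19.9 CPM in Ctrl and 18.8, 18.5 and 11.3 CPM in TKO. The spread within each group, with coefficients of variation of 26.3% and 26.4%, was far larger than the difference of the means, and the log2 fold change was 0.08 (interval -0.47 to 0.64). *Abhd5* (ENSMUSG00000032540, chr9:122351616-122381524), which also activates the triglyceride lipase encoded by *Pnpla2*, was steadier. It read 54.9, 59.8 and 58.4 CPM in Ctrl and 65.5, 62.4 and 54.7 CPM in TKO. TKO replicate 3 was the lowest and TKO replicates 1 and 2 the highest of the 6 libraries, and the log2 fold change was 0.08 with an interval of -0.21 to 0.36.

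*Ugcg* (ENSMUSG00000028381, chr4:59189507-59222833) encodes the glucosylceramide synthase that prepares ceramides for lamellar granules. Its levels were 32.2, 34.1 and 37.1 CPM in Ctrl and 40.4, 43.6 and 35.7 CPM in TKO. Again TKO replicates 1 and 2 were above all Ctrl libraries and TKO replicate 3 was within their range. The means were 34.5 ± 2.46 and 39.9 ± 3.99 CPM, and the log2 fold change was 0.21 ± 0.142 (SE, interval -0.11 to 0.53, unadjusted p 0.167, adjusted p 0.9998 in edgeR).

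*Abca12* (ENSMUSG00000050296, chr1:71243090-71414910), the transporter that loads glucosylated lipids into lamellar granules, had the largest difference of the 10 genes and the smallest p. It stood at 68.3, 81.7 and 90.6 CPM in Ctrl and at 134.0, 125.4 and 72.9 CPM in TKO. TKO replicates 1 and 2 were above all Ctrl libraries, whereas TKO replicate 3 was below 2 of the 3. The means were 80.2 ± 11.2 and 110.8 ± 33.1 CPM, a fold of 1.38 with a log2 fold change of 0.47 ± 0.219 (SE, interval -0.02 to 0.96). The unadjusted p was 0.0600 and the adjusted p 0.861 in edgeR, so the difference did not exceed the spread between libraries. Without TKO replicate 3 the log2 fold change was 0.69 and the adjusted p 0.0857, also short of the threshold. The unadjusted p was under 0.05 in 4 of 15 alternatives: 0.000961 without that library, 0.00753 with no low-count filter, 0.0454 in the DESeq2 default workflow and 0.0460 with library totals alone.

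The lipoxygenases *Alox12b* and *Aloxe3* oxidize the linoleate of acylceramide in sequence and are neighbours on chromosome 11, *Aloxe3* at chr11:69125417-69149115 and *Alox12b* at chr11:69157072-69169791. RefSeq places 7956 bases and 0 other genes between them. *Alox12b* (ENSMUSG00000032807) read 7.49, 9.75 and 11.7 CPM in Ctrl and 9.68, 13.4 and 6.64 CPM in TKO, the TKO libraries spanning the whole Ctrl range. Its log2 fold change was 0.04 ± 0.278 (SE, interval -0.58 to 0.66). *Aloxe3* (ENSMUSG00000020892) read 7.21, 5.66 and 8.62 CPM in Ctrl and 7.14, 7.56 and 3.80 CPM in TKO. Only TKO replicate 3 left the Ctrl range, and the log2 fold change was -0.22 ± 0.302 (SE, interval -0.89 to 0.46). These 2 genes, with *Pnpla1*, had the widest intervals of the list and are where a moderate difference would be hardest to detect.

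**Figure D2:**
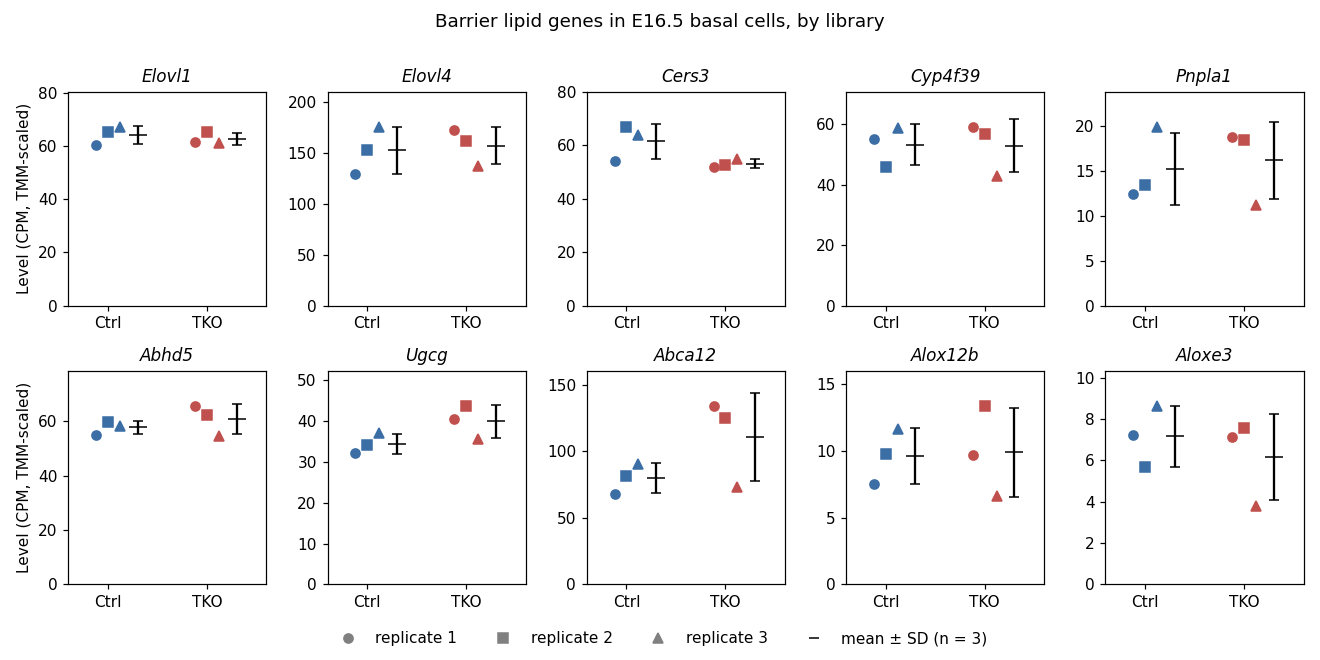
Scaled CPM of each of the 10 genes in the 3 Ctrl (blue) and 3 TKO (red) libraries, with symbols for the replicate and bars for the group mean and SD. In *Abca12* the TKO libraries lay at 134.0, 125.4 and 72.9 CPM around the Ctrl range of 68.3 to 90.6 CPM, and in no gene were the groups fully separate.

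**Figure D3:**
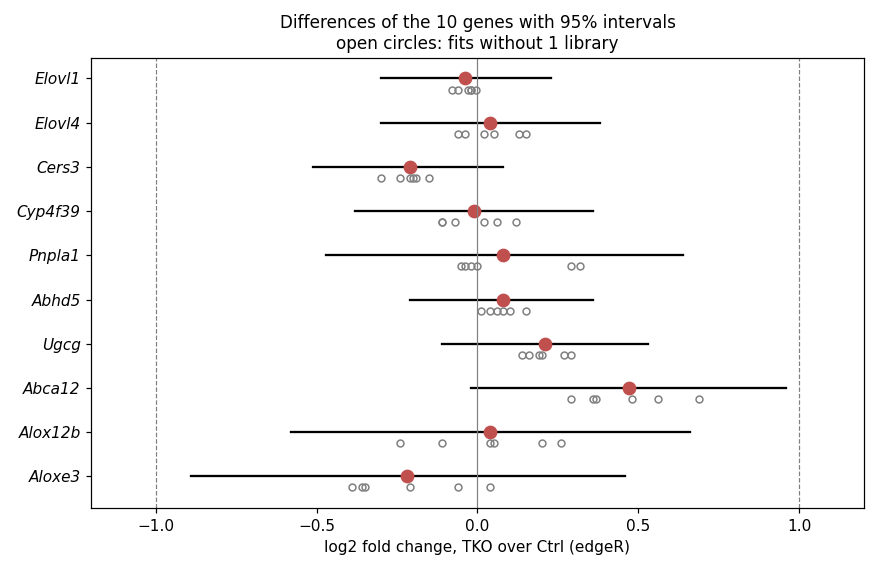
Log2 fold change of TKO over Ctrl for each gene (red point) with its 95% interval from edgeR (line), the values of the 6 fits that leave out 1 library each (open circles), and dashed lines at -1 and 1. All 10 intervals lay between the lines and included 0, the interval of *Abca12* reaching from -0.02 to 0.96.

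The 10 genes shared part of their order across libraries. TKO replicate 3 was the lowest TKO library in 9 of 10 genes, *Cers3* being the exception, and the lowest of all 6 libraries in 5. Ctrl replicate 1 was the lowest Ctrl library in 8 genes and Ctrl replicate 3 the highest Ctrl library in 8. The share of all tested genes with these orders was not counted, so the orders are not shown to be particular to the 10 genes. Averaged over the genes, the deviation in log2 CPM from the mean of the 3 Ctrl libraries was -0.14, -0.04 and 0.18 in Ctrl replicates 1 to 3 and 0.16, 0.20 and -0.26 in TKO replicates 1 to 3. Each group thus held libraries below and above the Ctrl mean, and the summed level of the 10 genes was 482.1, 535.9 and 591.4 CPM in Ctrl against 620.8, 607.5 and 481.6 CPM in TKO. In TKO replicate 3 the deviation was largest for the lipoxygenases, -0.89 for *Aloxe3* and -0.51 for *Alox12b*, followed by *Pnpla1* at -0.41.

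**Figure D4:**
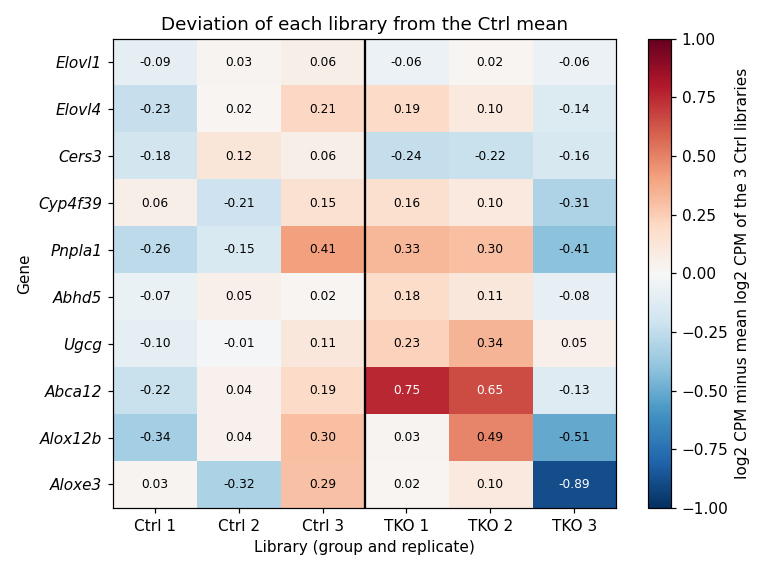
Deviation of each gene's log2 CPM from its mean over the 3 Ctrl libraries, genes in rows and libraries in columns, with red above and blue below that mean. TKO replicate 3 was below the Ctrl mean in all genes but *Ugcg*, down to -0.89 in *Aloxe3*, while TKO replicates 1 and 2 were at 0.75 and 0.65 in *Abca12*.

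Some other markers were also lowest in this library and others were not, and their part in the result was not tested. Of the 9 spinous markers, 3 (*Sbsn*, *Krt77* and *Calml3*) were lowest of the 6 libraries in TKO replicate 3, while 4 (*Dsg1a*, *Krt1*, *Krt10* and *Krtdap*) were lowest in TKO replicate 2, where the barrier lipid genes were high. Of the 12 tested granular markers, 4 (*Flg2*, *Hrnr*, *Ivl* and *Klk7*) were lowest in TKO replicate 3 and 1 (*Flg*) was highest there. In each other library 0 to 3 of them were lowest. *Sbsn* stood at 44.0, 48.8 and 34.1 CPM in Ctrl and at 66.5, 78.0 and 23.9 CPM in TKO, and *Krt77* was at 14.4 CPM in TKO replicate 3. *Krtdap* went the other way and was highest there, at 645.2 CPM against 443.6 to 534.5 CPM elsewhere. These genes were picked out after their values were seen. The summed spinous list read 19472.3, 19281.1 and 21168.4 CPM in Ctrl and 17364.0, 13199.0 and 13827.8 CPM in TKO. The granular list summed to 340.4, 410.6 and 415.1 CPM in Ctrl and 372.6, 339.5 and 355.6 CPM in TKO, with *Asprv1* its most abundant gene, and 0 of its 12 tested genes reached an unadjusted p under 0.05. The hair placode list was highest in TKO replicate 3, at 693.9 CPM against 416.0 to 523.1 CPM elsewhere. Across the whole table, leaving out TKO replicate 3 raised the number of genes called from 27 to 81, with 0 barrier lipid genes among them.

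The genes whose pattern over the 6 libraries was most like the mean standardized level of the 10 genes were *Fbxo48* (Pearson r = 0.978), *Ltbr* (0.975), *Abcd4* (0.968), *Gm28455* (0.965) and *Rspry1* (0.963). *Abcd4*, for example, read 18.7, 19.8 and 24.6 CPM in Ctrl and 22.2, 25.4 and 16.6 CPM in TKO. With 6 points and 13928 candidate genes, 44 of which had an r above 0.9, this is a description of likeness only. The points share library depth and cell makeup.

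The rest of the pathway was read from 8 lists holding 106 other genes, of which 101 were tested. None was called, and 7 of the 101 (6.93%) had an unadjusted p under 0.05, near the 6.08% of all tested genes. Of these 2 were higher (1.98%, against 4.06% of all tested genes) and 5 lower in TKO (4.95%, against 2.02%). All TKO libraries were above all Ctrl libraries in 3 genes (2.97%, against 6.35% of all tested genes) and below in 10 (9.9%, against 5.11%). Positive log2 fold changes numbered 36 of 101 (35.6%), beside 51.9% of all tested genes.

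The list of fatty acid synthesis and elongation, with 18 tested genes, had a median log2 fold change of -0.06. *Scd1*, a desaturase that makes monounsaturated fatty acids, had the smallest p of its list. It stood at 45.9, 57.5 and 43.7 CPM in Ctrl and at 25.2, 25.6 and 40.1 CPM in TKO, without overlap, but did not pass the test (log2 fold change -0.69 ± 0.207, unadjusted p 0.00746, adjusted p 0.451 in edgeR). With no low-count filter its adjusted p was 0.00425 in edgeR (log2 fold change -0.73, under the fold threshold), and without TKO replicate 3 it was 0.0555 (-0.95). *Scd2*, a desaturase paralog and one of the 2 most abundant genes of the list, had a log2 fold change of -0.41 and overlapping groups. *Tecr*, the reductase of the last elongation step, was the other and differed less between groups (-0.10) than within TKO, where it ran from 204.8 to 450.0 CPM.

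Ceramide synthesis (12 tested) had a median of 0.03 and held both genes with an unadjusted p under 0.05 in the higher direction, *Cers6* and *Cers4*. *Cers6*, which makes ceramides of shorter chains, read 89.8, 109.7 and 113.7 CPM in Ctrl and 127.9, 128.8 and 130.2 CPM in TKO, the groups not overlapping (log2 fold change 0.30, adjusted p 0.798 in edgeR). *Cers4* had a log2 fold change of 0.78 at a low level, 2.86 to 4.68 CPM in Ctrl and 4.51 to 8.79 CPM in TKO, with overlap and an adjusted p of 0.741 in edgeR. The abundant *Degs1*, the desaturase that completes ceramide, and *Sptssa*, a small subunit of serine palmitoyltransferase, had values of 0.14 and -0.19.

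The glucosylceramide and sphingomyelin list, with 8 tested genes and 6 negative values, had a median of -0.21. *Psap*, which encodes the saposins needed to turn glucosylceramide back into ceramide, led it at 225.7 CPM per kb with a log2 fold change of -0.22, and *Acer1*, an alkaline ceramidase of epidermis, had -0.23; neither passed the test. In the triglyceride and lipid droplet list (8 tested, median -0.05), the droplet coat gene *Plin3* and the monoglyceride lipase *Mgll* had all TKO libraries below all Ctrl libraries. *Plin3* read 104.4, 104.0 and 90.0 CPM against 76.0, 82.1 and 82.1 CPM (log2 fold change -0.31, adjusted p 0.738 in edgeR). *Mgll* read 23.5, 23.9 and 19.4 CPM against 15.8, 18.7 and 17.4 CPM (-0.36, adjusted p 0.793 in edgeR). *Dgat2*, which makes triglyceride, was at -0.04.

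Among the 9 tested genes of acylceramide oxidation and attachment (median 0.07), *Tgm1*, the transglutaminase of the cornified envelope, was the most abundant and had a log2 fold change of 0.14, and *Alox12*, a further lipoxygenase, had -0.39 with all TKO libraries below Ctrl and no call. The lamellar granule and transport list (13 tested, median -0.04) was led by the fatty acid binding protein gene *Fabp5* (-0.26) and by *Tmem79*, a lamellar granule membrane protein gene (-0.31), both with unadjusted p above 0.05. Of 14 tested genes of cholesterol synthesis and sulfation, 13 had a negative value, beside 9916 of all 20622 tested genes. The list's median was -0.21, and it ran from -0.30 to -0.14 under the alternatives, which are refits of the same libraries. The summed list overlapped between groups, at 1142.5, 1213.3 and 959.2 CPM in Ctrl and 1041.9, 961.0 and 935.3 CPM in TKO. The synthesis gene *Hmgcs1*, one of the most abundant of that list, had a log2 fold change of -0.22. No cholesterol gene was called.

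Transcription factors that act on barrier genes were a further list of 19, with a median of -0.04 and 0 genes at an unadjusted p under 0.05. *Trp63*, the master factor of stratified epithelium, stood at 771.8, 948.4 and 955.9 CPM in Ctrl and 861.4, 852.3 and 1117.0 CPM in TKO. *Klf4*, a factor needed for barrier acquisition, read 261.6, 276.8 and 305.5 CPM against 261.2, 274.2 and 295.7 CPM. The groups overlapped in both genes.

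**Figure D5:**
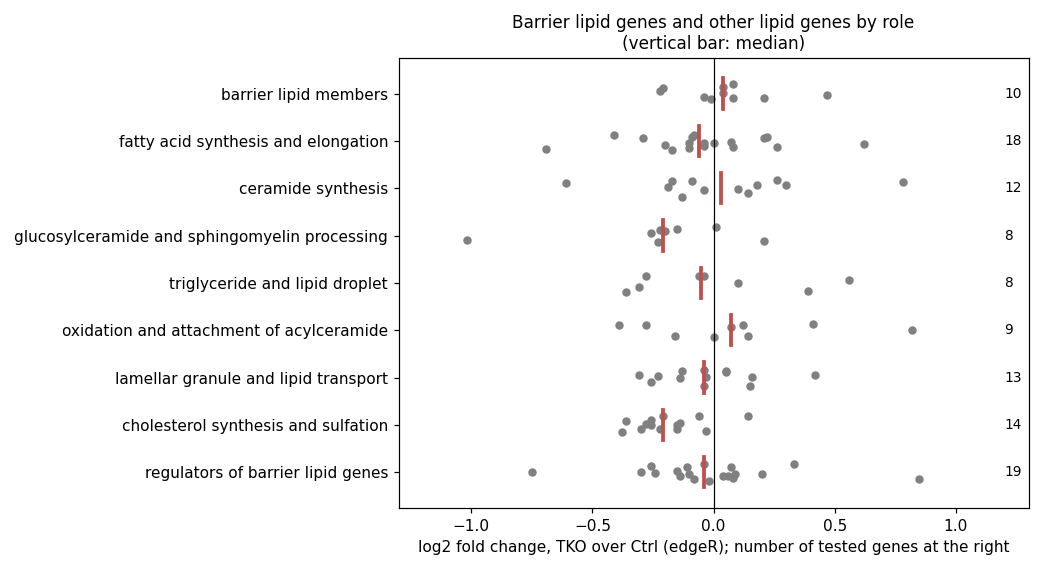
Log2 fold change of TKO over Ctrl for every tested gene of the member list and of the 8 pathway lists, 1 point per gene, with the list median as a vertical bar and the number of tested genes at the right. The 10 barrier lipid genes lay between -0.22 and 0.47 around a median of 0.04. Of the cholesterol genes 13 of 14 lay below 0, as did 9916 of all 20622 tested genes.

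The remaining markers were read beside these values. The basal list summed to 24495.3, 24355.4 and 18262.7 CPM in Ctrl and 15215.4, 17056.0 and 19393.3 CPM in TKO, and *Krt15* had the largest difference in it (log2 fold change -1.18, adjusted p 0.185 in edgeR). *Krt1* and *Krt10* had log2 fold changes of -0.51 and -0.42 with all TKO libraries below all Ctrl libraries and no call. Skeletal muscle markers summed to 2.6, 9.7 and 6.5 CPM in Ctrl and to 32.7, 30.7 and 32.6 CPM in TKO. *Ttn* made up most of the TKO sums, at 26.1, 22.1 and 20.9 CPM. The groups were separate in *Ttn*, *Myh3* and *Myh8* and overlapped in *Acta1*, *Myl1* and *Tnnt3*. *Myh3*, the embryonic myosin heavy chain, was the only marker called by edgeR (log2 fold change 2.61, adjusted p 0.0211). The markers' calls depended on the tool: DESeq2 on the same genes gave 9 markers an adjusted p under 0.05, *Acta1*, *Mlana*, *Myh3*, *Myh8*, *Sprr1b* and *Ttn* higher and *Isl1*, *Krt15* and *Krt8* lower in TKO. The Merkel cell markers summed to 8.8, 9.9 and 9.8 CPM in Ctrl and 3.5, 2.0 and 3.7 CPM in TKO, and all 5 tested had an unadjusted p under 0.05 in the lower direction. None of these 5 was called by edgeR, while DESeq2 gave *Krt8* and *Isl1* adjusted p-values of 4.9e-06 and 0.0136. Of the remaining lists, at an unadjusted p under 0.05, periderm had 1 gene higher (*Sprr1b*) and 1 lower (*Krt13*), adipocyte 2 higher of 2 tested, melanocyte 1 higher (*Mlana*), endothelial 1 higher (*Cdh5*), and hair placode, fibroblast and immune cell 0.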

How the data were processed

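The authors deposited raw counts per gene, 1 column per library. Per the labels, RNA of sorted cells was depleted of rRNA before library preparation, and fastp and STAR were used. The labels name build GRCm38, the study's methods GRCm39; the counting program, annotation and strand setting are not given in the sources used here. Symbols, exon lengths and overlapping genes came from GENCODE vM39, which held 51477 of the 55536 identifiers, and coordinates and promoters from RefSeq GRCm38.p6. All 6 libraries entered 1 fit of TKO against Ctrl, with edgeR 4.0.16 in R 4.3.3 (filterByExpr with a minimum count of 10 and total of 15, TMM scaling, robust glmQLFit and glmQLFTest), giving 20622 tested genes and Benjamini-Hochberg adjustment over all of them. The biological coefficient of variation was 36.5%. SEs were derived from the F statistic, and intervals are 95% from the t distribution, unadjusted for the number of genes.

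The 10 members and all lists were chosen with earlier results of these data known. Named were all members, the 2 most abundant genes per kb in each pathway list and every list gene at an unadjusted p under 0.05, the 5 genes most alike, the targeted genes, and each marker list with its leading gene; 2 genes that this rule names are not reported here. The sort itself used Epcam and α6. Alternatives were DESeq2 1.42.0 (the study used a different version of DESeq2), other scalings and filters, the replicate number or sex as a term, non-robust fitting, other thresholds and leaving out each library.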

Additional observations from a re-analysis of the deposited data

How the results depend on the processing

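No barrier lipid gene was called under any alternative. Their median log2 fold change ranged from -0.05 to 0.14, less than the spread between libraries. *Abca12* stayed positive under all alternatives (0.29 to 0.69, adjusted p 0.0857 to 1.0 by edgeR or DESeq2, unadjusted p under 0.05 in 4 of 15). The number of genes called in the whole table moved more, from 27 (0 lower) to 227 with the DESeq2 default workflow (29 lower), 214 with DESeq2 on the same genes (21 lower), 235 with no low-count filter (22 lower), 9 with at least 10 counts in every library and 1253 at an unadjusted p under 0.05 with no fold threshold (837 higher, 416 lower), by which rule 7 pathway genes were counted. Leaving out each library in turn gave 7 to 81, the latter without TKO replicate 3 and with 16 lower; the other 5 fits of this kind had 0 lower. With no low-count filter the median of all genes moved to -0.11. With library totals alone the sign turned for *Elovl1* (0.01), *Cyp4f39* (0.03) and *Klf4* (0.03). Leaving out single libraries turned the sign of values near 0, which ranged from -0.24 to 0.26 for *Alox12b*, -0.39 to 0.04 for *Aloxe3*, -0.06 to 0.15 for *Elovl4*, -0.11 to 0.12 for *Cyp4f39* and -0.05 to 0.32 for *Pnpla1*, and from -0.56 to 0.10 for *Tecr*, -0.02 to 0.29 for *Degs1*, -0.19 to 0.13 for *Dgat2*, -0.0047 to 0.28 for *Tgm1*, -0.37 to 0.03 for *Hmgcs1*, -0.07 to 0.04 for *Klf4* and -0.06 to 0.15 for *Trp63*. The cause was not tested.

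The deviations of libraries with the same replicate number had correlations of 0.168, 0.0873 and 0.127, and those with different numbers -0.161 to 0.0398. Every library correlated best with its own number. Deviations within a group sum to 0, so these correlations depend on each other, and a shared replicate effect was not tested. Controls in the paper were littermates without Cre unless noted otherwise, and the study's records list 3 litters, so pairs by litter are possible. The running numbers in the column names are adjacent for Ctrl and TKO libraries of the same replicate number. As no label ties either number to a litter or day, the replicate numbers were not taken as a pairing in the main fit. A fit blocked on the replicate number called 45 genes (44 higher, 1 lower) and 0 barrier lipid genes.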
